A study of Mus musculus with 4 samples.

Results

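The genes described here are 34 mouse genes that carry butyrate and longer fatty acids from the cell surface to acetyl-CoA and on to ketone bodies. They were chosen by name, as a list, and every one was found among the 53819 gene symbols of the deposited count table. All 34 also passed the filter on low counts that left 18788 genes for testing. RNA was sequenced from material labelled as primary eosinophils of the colon of wild-type C57Bl/6 mice. In 2 libraries the mice drank water, and in the other 2 they received dextran sulfate sodium (DSS) at 3%, a detergent-like polymer that injures the colonic epithelium and is used as a model of colitis. All groups share the wild-type genotype, and the libraries are called water 1, water 2, DSS 1 and DSS 2 after their replicate numbers. The length of the treatment, the age and sex of the mice, the way the cells were isolated, and whether each library came from its own mouse are not given in the sources used here, so the spread behind the p-values below is that between libraries and may be purely technical. All 4 titles end with a tag, D6, that no source explains.

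Butyrate is made by gut bacteria from fibre and is a main fuel of colonocytes, the absorptive cells of the colon. It enters through the transporters encoded by Slc16a1 and Slc5a8 and is joined to coenzyme A by a synthetase. Longer chains are activated by long-chain synthetases and brought into the mitochondrion by the carnitine shuttle. A repeated cycle of dehydrogenation, hydration, a second dehydrogenation and thiolysis then shortens the chain to acetyl-CoA, and acetyl-CoA can be turned into ketone bodies or oxidised in the tricarboxylic acid (TCA) cycle. The nuclear receptors PPARα and PPARγ, encoded by Ppara and Pparg, are known to switch on many of these genes.

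The libraries held from 30985905 (water 2) to 34126329 (DSS 2) counts. Levels are given as CPM, counts scaled to a common library size, with sizes adjusted by TMM, a scaling that lines up the bulk of the genes. The 10 eosinophil markers summed to 7.85 CPM in water 1, 72.9 in water 2, 94.4 in DSS 1 and 352 in DSS 2, and 5, 3, 3 and 0 of them were at 0. The 15 epithelial markers summed to 10799, 6509, 3893 and 9679 CPM in the same order. Epithelial RNA was thus far more abundant than eosinophil RNA in every library, and the values below describe RNA of mixed tissue. Immunoglobulin and T cell receptor segments took 31.8% of the counts in DSS 1 and 6.78% to 8.31% in the others. Neutrophil markers were higher in DSS 1 (1349 CPM) and DSS 2 (1974) than in water 1 (61.6) and water 2 (203). Pancreas markers reached 10219 CPM in water 1 against at most 38.0 elsewhere. Prostate markers summed to 201 CPM in water 1 and 136 in water 2, against 4.02 in DSS 1 and 6.74 in DSS 2. The source of the pancreas and prostate RNA was not tested.

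The 34 genes as a group did not separate DSS from water. Their summed level was 2366 CPM in water 1, 1857 in water 2, 1519 in DSS 1 and 2409 in DSS 2. The DSS libraries were thus both the lowest and the highest, on either side of the water libraries, and the group means of 2111 ± 360 CPM (SD, n = 2) for water and 1964 ± 629 (SD, n = 2) for DSS overlapped. As a share of all counts the genes took 0.249%, 0.205%, 0.124% and 0.248% in the same order. The exact binomial intervals at 95% were 0.247% to 0.251%, 0.204% to 0.207%, 0.122% to 0.125% and 0.246% to 0.25%, and they cover counting error only. No member passed edgeR's quasi-likelihood test at an adjusted p under 0.05 (Benjamini-Hochberg over all 18788 genes), where 0.0160% of all genes passed as lower in DSS and 0% as higher, and the lowest adjusted p of a member was 0.505. None passed DESeq2's Wald test either, where 0.890% of all genes passed as lower and 1.64% as higher. At an unadjusted edgeR p under 0.05, 1 member passed as higher, Acsl4, and 0 as lower, beside 5.06% and 3.39% of all genes. In a bulk sample, fewer cells of a type and less RNA per cell cannot be told apart.

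**Figure D1:**
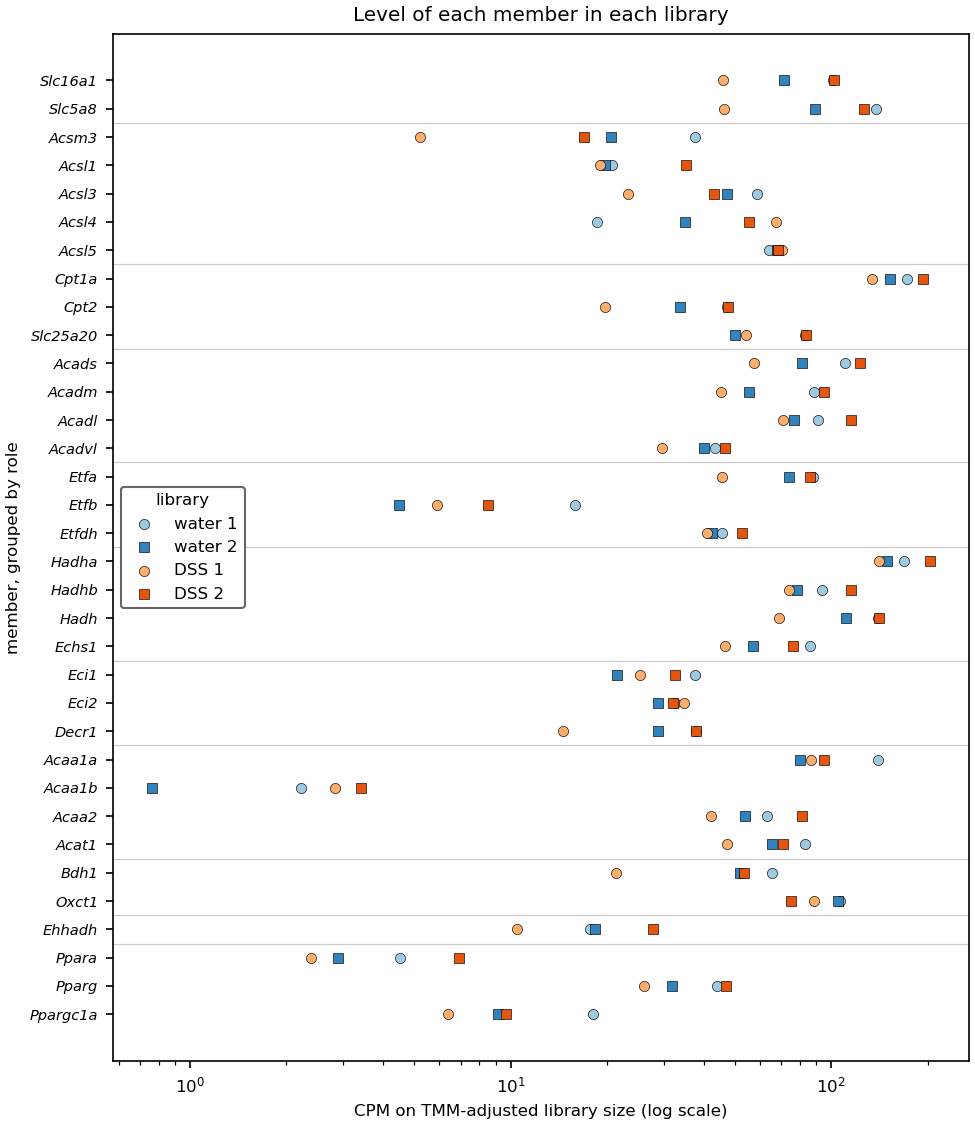
Level of each of the 34 genes in each library, in CPM on TMM-adjusted library size, on a log axis. Each point is 1 library, and genes are grouped by role with grey lines between roles. For most genes DSS 1 (light orange circle) is the leftmost point and DSS 2 (dark orange square) or water 1 (light blue circle) the rightmost.

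The log2 fold changes of DSS against water ran from -1.39 for Acsm3 to 1.19 for Acsl4, with a median of -0.07 beside -0.01 for all genes tested. Of the members, 14 lay above 0 and 20 below. In 3 members each DSS library exceeded each water library (Acsl4, Acsl5 and Acaa1b), beside 20.8% of all genes, and in 3 both lay below (Acsm3, Acsl3 and Oxct1), beside 18.7%. The members' share was under the background in each direction. With 2 libraries against 2, an exact permutation test cannot go below p = 0.333 for a single value. The fold changes also hung on single libraries: the median was 0.20 without DSS 1, -0.58 without DSS 2, 0.09 without water 1 and -0.30 without water 2. Only 9 of the 34 kept their sign when each library was left out in turn (26.5%, against 53.5% of 18563 genes fitted every time), namely Acsm3, Acsl3, Acsl4, Eci2, Acaa1b, Acat1, Bdh1, Oxct1 and Ppargc1a.

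**Figure D2:**
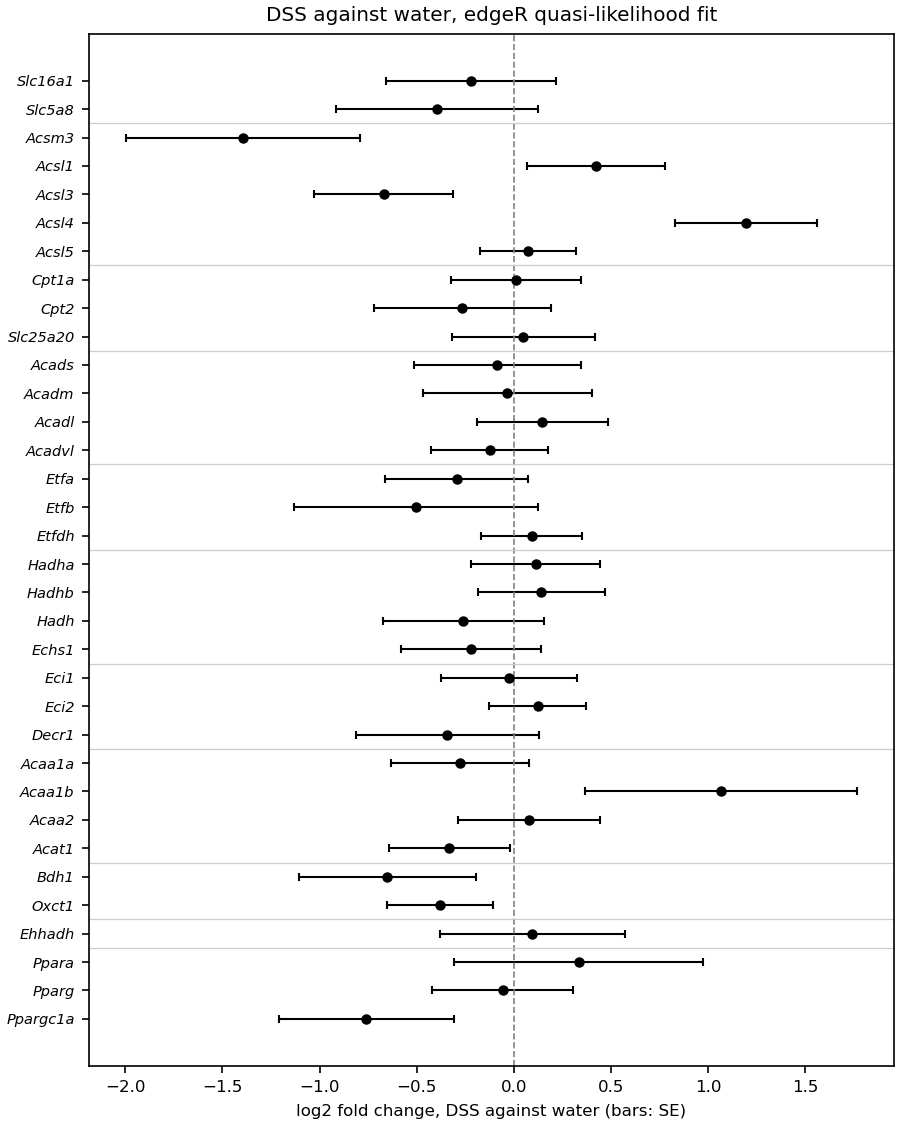
Log2 fold change of each member, DSS against water, from the edgeR fit across all genes. Points are estimates, and the dashed line marks no difference. Bars are 1 standard error, derived from the fold change and the F statistic of the test. Acsm3 lies farthest to the left at -1.39 and Acsl4 farthest to the right at 1.19.

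The members shared a pattern over single libraries. DSS 1 was the lowest library for 25 of 34 members (31.6% of all genes), and DSS 2 was the highest for 18 (20.5% of all genes). DSS 1 lay below DSS 2 for 30 members (88.2%, against 51.8% of all genes), and water 2 lay below water 1 for 31 (91.2%, against 49.5%). The order of the epithelial marker sums given above was similar but not the same, with water 1 first and DSS 2 second. Per read of the epithelial markers, the members took 0.219 reads in water 1, 0.285 in water 2, 0.390 in DSS 1 and 0.249 in DSS 2, so DSS 1, the lowest library in CPM, was the highest on this scale. The same was seen for 25 of the 34 genes one by one and for 78.4% of all genes. On this scale each DSS library exceeded each water library in 9 members (Acsl1, Acsl4, Slc25a20, Acads, Acadm, Acadl, Acaa1b, Acaa2 and Ppara), which is 26.5% beside 12.1% of all genes, and was under each in 2 (Acsm3 and Bdh1), which is 5.88% beside 6.23%. The scaling to epithelial reads moved the median log2 fold change of all genes to 0.52 and that of the members to 0.33.

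**Figure D3:**
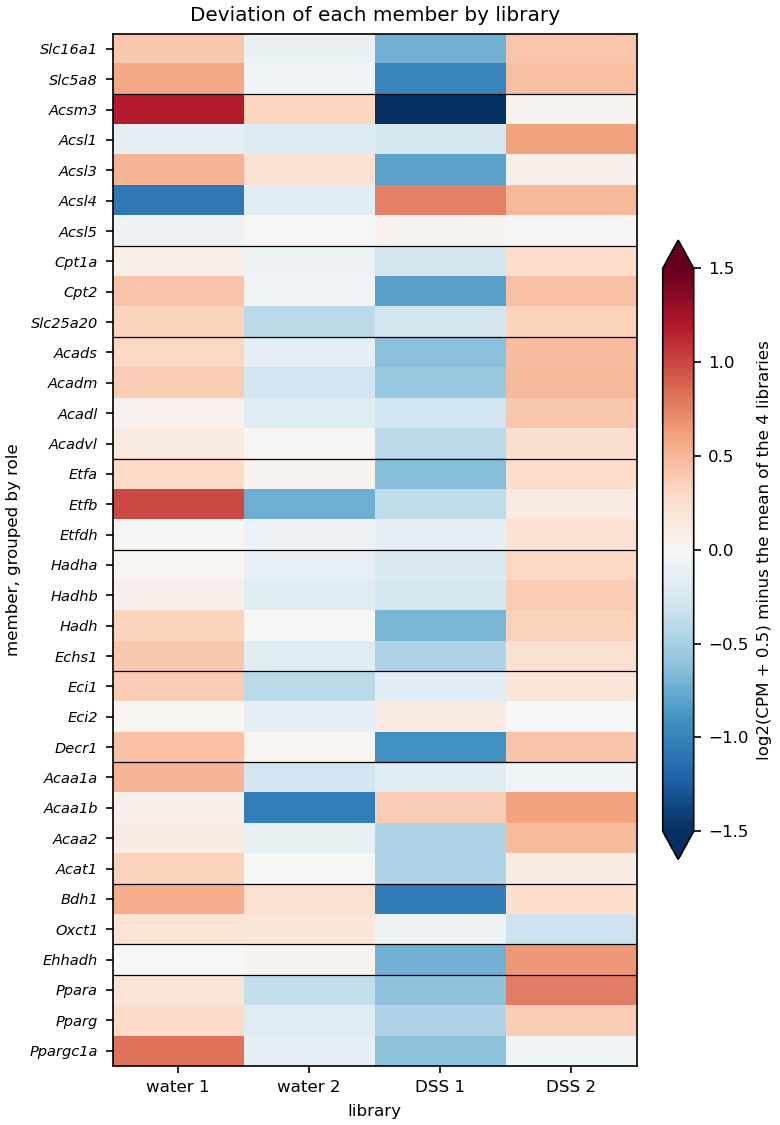
Deviation of each member in each library from its own mean over the 4 libraries, as log2(CPM + 0.5). Rows are genes grouped by role, columns are libraries, red is above the mean and blue below, and colours stop at 1.5 in either direction. The DSS 1 column is blue for most genes and the DSS 2 column red, with exceptions such as Acsl4 and Acaa1b, which are red in DSS 1, and Oxct1, which is blue in DSS 2.

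Against the TCA cycle genes, which encode another set of mitochondrial enzymes, the members held a nearly fixed proportion. The 23 TCA genes summed to 3060, 2499, 1964 and 3007 CPM in water 1, water 2, DSS 1 and DSS 2, and the members gave 0.773, 0.743, 0.774 and 0.801 reads for each TCA read. The means were 0.758 ± 0.0213 (SD, n = 2) for water and 0.787 ± 0.0195 (SD, n = 2) for DSS, with DSS 1 barely above water 1. The proportion was less steady against 18 other mitochondrial genes, of the outer membrane, protein import and chaperones. For each read of those genes the members gave 1.433 reads in water 1, 1.119 in water 2, 1.266 in DSS 1 and 1.504 in DSS 2, and the groups overlapped. The steady ratio thus held for the TCA genes and not for both mitochondrial lists. The spread of a member over the 4 libraries, as the SD of its log2 level, had a median of 0.43 in CPM, 0.40 per epithelial read and 0.27 per TCA read. Dividing by TCA reads made the spread smaller for 28 of 34 members (82.4%, against 31.7% of all genes), and dividing by epithelial reads did so for 18 (52.9%, against 18.3%). Both quantities share the library, so these ratios are descriptions, and the part of epithelial or mitochondrial content in the members' levels was not tested.

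**Figure D4:**
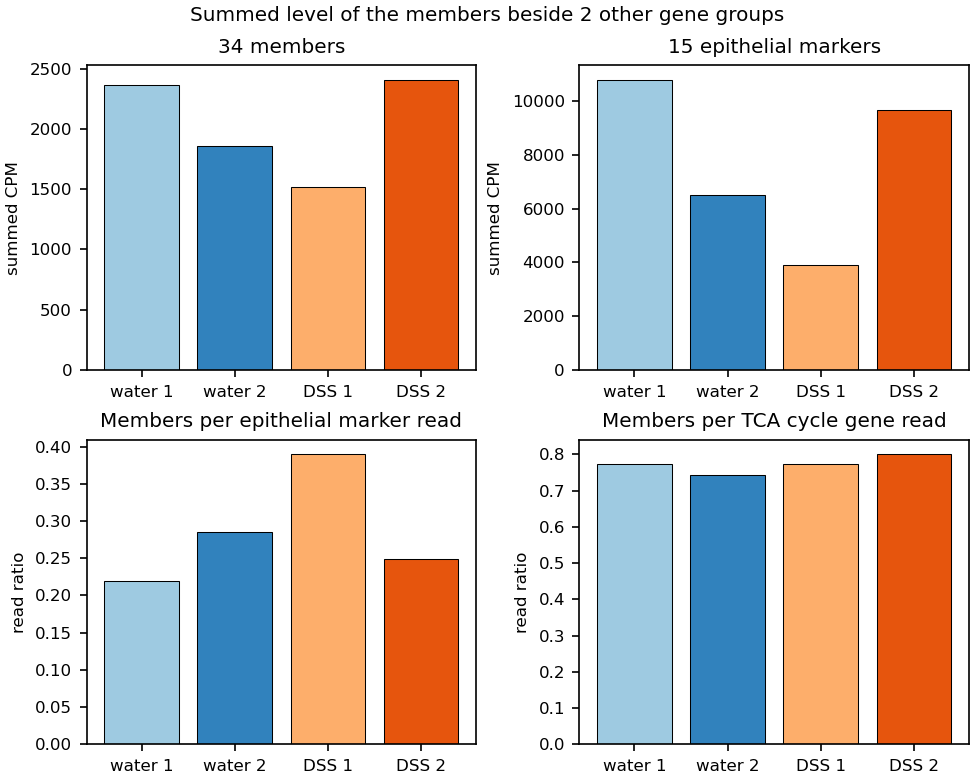
Summed CPM of the 34 members and of the 15 epithelial markers in each library (upper panels), and reads of the members per epithelial marker read and per TCA cycle gene read (lower panels). Each bar is 1 library and all axes start at 0. The bars per TCA read are almost level, from 0.743 to 0.801, while those per epithelial read run from 0.219 to 0.390.

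The 2 transporters followed the epithelial marker sum across libraries. Slc16a1, the proton-coupled carrier MCT1 that moves butyrate, lactate and ketone bodies, stood at 101 CPM in water 1, 71.1 in water 2, 46.0 in DSS 1 and 102 in DSS 2. Slc5a8, the sodium-coupled carrier SMCT1 of the colonocyte surface, stood at 138, 89.3, 46.4 and 126. In both genes DSS 1 was lowest and the other DSS library lay within or above the water values. The log2 fold changes were -0.22 (SE 0.44, edgeR adjusted p = 0.940) for Slc16a1 and -0.40 (SE 0.52, adjusted p = 0.893) for Slc5a8. Counted per 1000 epithelial reads, Slc5a8 was almost constant at 12.8, 13.7, 11.9 and 13.1, and Slc16a1 at 9.35, 10.9, 11.8 and 10.5. The SD of log2 Slc5a8 went from 0.71 in CPM to 0.08 on that scale, and that of Slc16a1 from 0.54 to 0.14. The read ratio of Slc5a8 to Slc16a1 was 1.37 in water 1, 1.26 in water 2, 1.01 in DSS 1 and 1.24 in DSS 2.

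The genes that join fatty acids to coenzyme A differed most among themselves. Acsm3, a medium-chain synthetase of the mitochondrial matrix, stood at 37.7 CPM in water 1, 20.6 in water 2, 5.21 in DSS 1 and 17.0 in DSS 2. Each DSS library was under each water library, with DSS 1 lowest by a wide margin. The log2 fold change was -1.39 (SE 0.60), with an unadjusted p of 0.060 and an adjusted p of 0.626 by edgeR and 0.233 by DESeq2. It was -0.93 without water 1, -1.75 without water 2, -0.79 without DSS 1 and -2.48 without DSS 2. The DESeq2 log2 fold change was -1.41 with all libraries and ran from -0.78 without DSS 1 to -2.47 without DSS 2. Of the DESeq2 fits, only the one without DSS 2 called Acsm3 lower, and there DSS 1 stands alone for its group. With no filter on counts, edgeR called Acsm3 lower (adjusted p = 0.00991). That fit called 341 of all genes lower, against 3 with the filter. Per 1000 epithelial reads Acsm3 gave 3.49, 3.17, 1.34 and 1.75, and here too each DSS library was under each water library. Surface colonocyte markers, 15 genes, also summed lowest in DSS 1 (2606 CPM, against 7193, 3987 and 6358 in water 1, water 2 and DSS 2), and their part in the Acsm3 values was not tested. The gene shares 1962 exon bases with Eri2 on the opposite strand, and no strand setting is given in the sources used here. Eri2 was at 7.26, 6.80, 3.42 and 3.07 CPM.

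Acsl4, a long-chain synthetase that prefers arachidonic and other polyunsaturated acids, had its higher values in DSS. Its level was 18.6 CPM in water 1, 35.0 in water 2, 67.3 in DSS 1 and 55.4 in DSS 2. Each DSS library exceeded each water library, and DSS 1, lowest for most members, was highest here. The log2 fold change was 1.19 (SE 0.36), with an unadjusted p of 0.016 and an adjusted p of 0.505 by edgeR and 0.145 by DESeq2, and it ran from 0.77 (without water 1) to 1.73 (without water 2). The DESeq2 log2 fold change was 1.19 with all libraries and ran from 0.80 without water 1 to 1.73 without water 2. Of the DESeq2 fits, only the one without water 2 called Acsl4 higher, and there water 1 stands alone for its group. With no filter on counts, edgeR called Acsl4 higher (adjusted p = 0.0196). That fit called 710 of all genes higher, against 0 with the filter. Per 1000 epithelial reads Acsl4 gave 1.72, 5.37, 17.3 and 5.72. Plasma cell and B cell markers summed to 7217, 6332, 37058 and 7843 CPM and T cell markers to 40.0, 84.5, 151 and 77.7. Both sums were highest in DSS 1, and neutrophil and eosinophil markers were higher in both DSS libraries. The part of these cells in the Acsl4 level was not tested.

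Acsl3, a synthetase of the endoplasmic reticulum and lipid droplets, stood at 58.5, 47.5, 23.3 and 43.3 CPM, with both DSS libraries below both water libraries (log2 fold change -0.67, SE 0.36, edgeR adjusted p = 0.700). It was -0.30 without DSS 1 and -1.19 without DSS 2. It shares 244 exon bases on the same strand with Utp14b, which was at 48.3, 26.7, 19.4 and 26.1 CPM. Acsl5, the main long-chain synthetase of the intestinal lining, was the steadiest member at 64.1, 67.6, 70.1 and 68.4 CPM. Its groups did not overlap, but the log2 fold change was 0.07 (SE 0.25, adjusted p = 0.968). Acsl1, the isoform best known from liver, heart and fat, stood at 20.7, 19.7, 19.1 and 35.1 CPM, high in DSS 2 alone. The ratio of Acsl4 reads to Acsl3 reads was 0.318 in water 1, 0.737 in water 2, 2.89 in DSS 1 and 1.28 in DSS 2. Acsl3 therefore had more reads in both water libraries and Acsl4 in both DSS libraries. The mean ratios were 0.527 ± 0.296 for water and 2.08 ± 1.14 for DSS (SD, n = 2). Per kilobase of merged exons, Acsl4 stood at 3.44, 6.47, 12.4 and 10.2 CPM in water 1, water 2, DSS 1 and DSS 2. Acsl3 stood at 13.4, 10.9, 5.35 and 9.93 on that scale, so the 2 genes were nearly level in DSS 2. Reads of Acsl4 per read of Acsl5 numbered 0.290, 0.518, 0.960 and 0.810 in the same order. These pairs were singled out after their values had been seen, and the ratios carry no test.

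**Figure D5:**
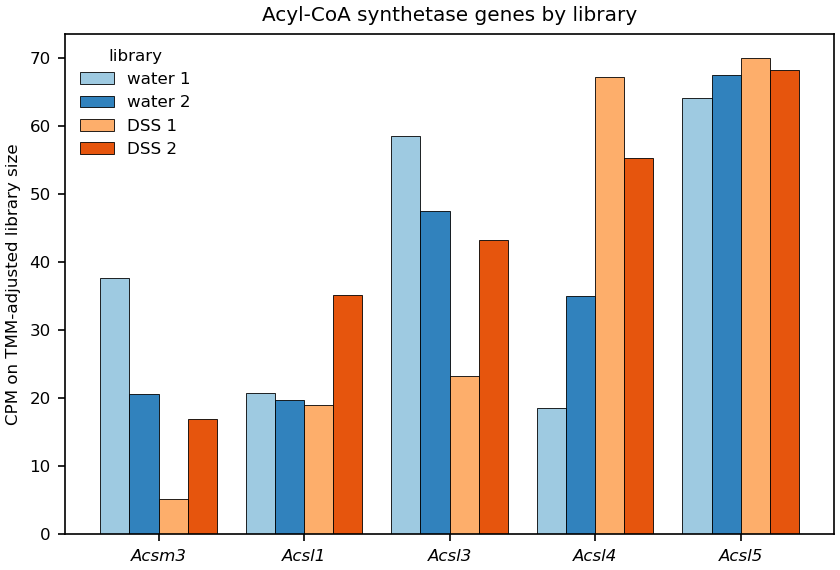
Level of the 5 acyl-CoA synthetase genes in each library, in CPM on TMM-adjusted library size. Each bar is 1 library and the axis starts at 0. Acsl4 is higher in both DSS libraries, Acsm3 and Acsl3 are lower in both, and Acsl5 is level at 64.1 to 70.1.

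Acsm3 and Acsl4 are the 2 members with the largest fold changes among those with a mean of at least 10 CPM, and their promoters are shown to set the sequences of the genes at either end of the fold changes side by side. Each window holds 250 bases before the RefSeq transcription start and 50 after it, in GRCm38.p6, 5′ to 3′ on the strand of the gene. Capitals mark CG dinucleotides, the sites of DNA methylation. The Acsm3 window lies at chr7:119760673-119760972 on the plus strand, and the Acsl4 window at chrX:142390486-142390785 on the minus strand.
Acsm3 promoter: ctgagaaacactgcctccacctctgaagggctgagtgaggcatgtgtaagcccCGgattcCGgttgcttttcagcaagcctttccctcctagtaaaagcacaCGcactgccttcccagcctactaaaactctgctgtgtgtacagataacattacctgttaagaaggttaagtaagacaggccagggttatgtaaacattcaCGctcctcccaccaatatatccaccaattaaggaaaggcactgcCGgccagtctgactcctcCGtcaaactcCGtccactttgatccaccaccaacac
Acsl4 promoter: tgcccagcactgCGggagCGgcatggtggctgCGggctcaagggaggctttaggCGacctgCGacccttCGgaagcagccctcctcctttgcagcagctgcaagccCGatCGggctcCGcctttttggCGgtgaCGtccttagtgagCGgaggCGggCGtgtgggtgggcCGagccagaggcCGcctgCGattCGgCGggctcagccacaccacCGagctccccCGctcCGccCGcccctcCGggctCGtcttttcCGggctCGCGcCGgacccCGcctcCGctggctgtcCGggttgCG
The Acsm3 window has 7 CG dinucleotides, while the Acsl4 window has 33 and is 71.7% G and C. The median over 32851 RefSeq promoters was 7, and 8.56% of them had at least as many as Acsl4. Methylation was not measured here.

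In the carnitine shuttle, Cpt1a, the rate-limiting enzyme of the outer membrane, varied less over the libraries than Cpt2. Cpt1a stood at 172 CPM in water 1, 153 in water 2, 134 in DSS 1 and 194 in DSS 2, a log2 fold change of 0.01 (SE 0.33, edgeR adjusted p = 0.999). Cpt2, which rebuilds the acyl-CoA inside the mitochondrion, stood at 47.4, 33.7, 19.7 and 47.8 CPM (-0.26, SE 0.45, adjusted p = 0.926). DSS 1 was lowest in both and DSS 2 highest, so the groups overlapped. Relative to 1000 epithelial reads Cpt2 was nearly fixed at 4.39, 5.18, 5.06 and 4.93, while Cpt1a spread to 15.97, 23.5, 34.3 and 20.0. The read ratio of Cpt1a to Cpt2 was 3.64 in water 1, 4.54 in water 2, 6.79 in DSS 1 and 4.06 in DSS 2, and DSS 1 stood apart. Slc25a20, the carrier that exchanges acylcarnitine for carnitine, was at 83.2, 50.1, 54.2 and 83.7 CPM.

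The 4 acyl-CoA dehydrogenases start each round of the cycle and differ in the chain length they accept. Acads, the short-chain enzyme that acts on butyryl-CoA, stood at 110 CPM in water 1, 81.0 in water 2, 57.4 in DSS 1 and 123 in DSS 2. Acadm, the medium-chain enzyme, stood at 88.6, 55.4, 45.5 and 95.2, and Acadl, the long-chain enzyme, at 91.1, 76.7, 70.6 and 115. Acadvl, the very-long-chain enzyme of the inner membrane, stood at 43.3, 40.0, 29.7 and 46.7. The order of libraries was the same in all 4, with DSS 2 first, then water 1, water 2 and DSS 1, and the water libraries always lay between the DSS libraries. The log2 fold changes ran from -0.12 (Acadvl) to 0.15 (Acadl). Per 1000 epithelial reads Acads gave 10.2, 12.4, 14.7 and 12.7, with each DSS value above each water value. Acadvl shares 1151 exon bases with Dvl2 on the opposite strand, and Dvl2 was at 14.2 to 19.4 CPM.

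Electrons from these enzymes pass through the electron transfer flavoprotein, made of the Etfa and Etfb subunits, to its oxidoreductase Etfdh and on to ubiquinone. Etfa stood at 87.8, 73.7, 45.6 and 86.2 CPM in water 1, water 2, DSS 1 and DSS 2, and Etfdh at 45.6, 42.4, 41.0 and 52.7. Etfb was counted far less, at 15.9, 4.50, 5.88 and 8.48 CPM, and was high in water 1 alone. None of the 3 separated the groups. The read ratio of Etfa to Etfb ran from 5.53 in water 1 to 16.4 in water 2, so the libraries did not keep the subunits of this heterodimer in a fixed proportion of reads. By the GENCODE annotation, Etfb shares 617 exon bases on the same strand with Gm45233, which is not among the gene symbols of the count table. How reads in the shared bases were counted is not known, so the Etfb level is uncertain.

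The trifunctional protein gave the opposite picture. Hadha, its alpha subunit with hydratase and 3-hydroxyacyl dehydrogenase activity, stood at 168 CPM in water 1, 150 in water 2, 141 in DSS 1 and 203 in DSS 2. Hadhb, its beta subunit with thiolase activity, stood at 93.6, 78.2, 74.0 and 116. Both were highest in DSS 2 and lowest in DSS 1, and the groups overlapped (log2 fold changes 0.11 and 0.14). The ratio of Hadha reads to Hadhb reads was 1.80, 1.92, 1.90 and 1.76, and the highest was 1.09 times the lowest. By the GENCODE annotation the 2 genes lie head to head, 85 bases apart. Their RefSeq promoter windows share 228 bases, and RefSeq places the start of Hadha further into the gene. The window of Hadhb, at chr5:30155003-30155302 in GRCm38.p6 on the plus strand, is shown because it spans both GENCODE starts of this pair. The RefSeq start of Hadha lies outside it. The pair was chosen after its values had been seen. The window holds the 85 bases between the GENCODE gene edges and the first bases of each gene in that annotation. Hadha is read from the other strand, and capitals again mark CG dinucleotides.
Hadhb promoter: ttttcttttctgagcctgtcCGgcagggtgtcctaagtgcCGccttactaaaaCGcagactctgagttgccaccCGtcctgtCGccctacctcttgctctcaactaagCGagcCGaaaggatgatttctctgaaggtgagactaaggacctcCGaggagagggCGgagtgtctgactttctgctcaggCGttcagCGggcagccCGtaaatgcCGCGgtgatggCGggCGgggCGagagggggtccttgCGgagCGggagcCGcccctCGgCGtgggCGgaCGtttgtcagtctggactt
It has 24 CG dinucleotides, and 20.0% of RefSeq promoters had at least as many. Hadh, the 3-hydroxyacyl dehydrogenase for shorter chains, stood at 140, 111, 68.6 and 141 CPM, and Echs1, the short-chain hydratase, at 86.0, 57.2, 46.8 and 76.2. DSS 1 was lowest in both, and neither separated the groups.

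The auxiliary enzymes that let unsaturated chains through the cycle differed from each other. Decr1, the mitochondrial dienoyl-CoA reductase, stood at 37.9 CPM in water 1, 28.8 in water 2, 14.6 in DSS 1 and 37.9 in DSS 2. Per 1000 epithelial reads it was 3.51, 4.42, 3.76 and 3.91, and the SD of its log2 level went from 0.65 in CPM to 0.14. Eci1, a mitochondrial enoyl-CoA isomerase, stood at 37.5, 21.5, 25.4 and 32.6 CPM, with the water libraries at both ends. Eci2, an isomerase found in mitochondria and peroxisomes, was nearly level at 32.7, 28.8, 34.8 and 32.1 and was 1 of the 3 members for which DSS 1 was highest, with Acsl4 and Acsl5.

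The thiolases cut off the terminal acetyl-CoA. Acaa2, the mitochondrial 3-ketoacyl-CoA thiolase, stood at 63.0 CPM in water 1, 53.8 in water 2, 42.2 in DSS 1 and 80.9 in DSS 2. Acat1, which joins or splits acetoacetyl-CoA and so stands at the branch to ketone bodies, stood at 83.2, 65.6, 47.4 and 70.7 (log2 fold change -0.33, and -0.08 without DSS 1). Its spread per TCA read, an SD of 0.10 on the log2 scale, was among the smallest, with Acadvl at 0.08. The peroxisomal thiolase Acaa1a stood at 140, 79.8, 86.3 and 95.02, high in water 1. Its close copy Acaa1b stood at 2.22, 0.759, 2.83 and 3.42, with both DSS libraries above both water libraries (log2 fold change 1.07, SE 0.70, edgeR adjusted p = 0.764). The fold change ran from 0.50 without water 2 to 2.00 without water 1. The near identity of the 2 copies makes the split of reads between them uncertain. Ehhadh, the bifunctional enzyme of peroxisomal oxidation, stood at 17.7, 18.3, 10.5 and 27.9, with the DSS libraries at both ends.

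The 2 ketone body enzymes were lower in their DSS means, and neither passed the test. Bdh1, which interconverts acetoacetate and 3-hydroxybutyrate, stood at 65.6 CPM in water 1, 52.1 in water 2, 21.3 in DSS 1 and 53.6 in DSS 2. The low mean came from DSS 1, since DSS 2 lay within the water values. The log2 fold change was -0.65 (SE 0.45, edgeR adjusted p = 0.776) and was -0.14 without DSS 1. Set against 1000 epithelial reads, Bdh1 gave 6.08, 7.999, 5.48 and 5.54, and on that scale each DSS library was under each water library, by a narrow margin from water 1. Oxct1, the transferase that opens ketone body use outside the liver, stood at 107, 105, 88.3 and 74.9 CPM, and each DSS library was under each water library (-0.38, SE 0.27, adjusted p = 0.779). It was the only member with its lowest level in DSS 2. Oxct1 gave 9.90, 16.2, 22.7 and 7.74 reads per 1000 epithelial reads, the groups overlapped, and with libraries scaled to epithelial counts its log2 fold change was 0.22, under the median of 0.52 that all genes had on that scale. The read ratio of Bdh1 to Oxct1 was 0.614, 0.495, 0.242 and 0.715.

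Among the regulators, Pparg stood at 44.2 CPM in water 1, 31.9 in water 2, 26.1 in DSS 1 and 47.0 in DSS 2, with the water libraries between the DSS libraries. Ppara was low at 4.51, 2.89, 2.38 and 6.92. Ppargc1a, the coactivator PGC-1α of mitochondrial genes, stood at 18.1, 9.17, 6.40 and 9.68, with water 1 well above the rest and the groups overlapping (log2 fold change -0.76, SE 0.45, edgeR adjusted p = 0.737). It was -0.22 without water 1 and -1.16 without water 2. Pparg is also known as the master gene of adipocytes, whose markers summed to 341, 265, 356 and 1010 CPM, highest in DSS 2, and their part in the Pparg level was not tested. PPAR receptors with their partner RXR bind a pair of AGGTCA hexamers, 1 base apart. The hexamer, searched on both strands, was found in 6 of the 35 RefSeq promoter windows that matched members (17.1%), and in 16.3% of all 32851 windows. The exact pair AGGTCANAGGTCA was found in 0 of the 35 and in 0.0396% of all. The windows matched 31 of the 34 members, and these letters describe the window and not binding.

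Levels of different genes can be set side by side only per length, and this was done as the mean CPM over the 4 libraries per kilobase of merged exons. Acadl had the highest mean at 44.1, followed by Acads at 41.0, Etfa at 40.0 and Acaa2 at 39.5, and after a step down by Oxct1 at 25.4, Hadh at 23.2, Acaa1a at 22.7 and Cpt1a at 21.4. The ranges of these first 4 over the libraries overlapped and their order differed, with Acads first in water 1, Etfa in water 2 and Acadl in both DSS libraries. Acsl1 at 2.26, Ppargc1a at 1.64, Acaa1b at 1.18 and Ppara at 1.09 were at the bottom. On this measure, enzymes or electron carriers of the mitochondrial cycle took the first 4 places, and 2 regulators stood among the last 4. Merged exons pool every annotated exon of a gene and can exceed the length of its transcripts. The merged length was 8730 bases for Hadha and 8286 for Echs1, against 1516 (Acaa2) to 2269 (Acads) for the first 4. The order thus depends on the annotation.

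A wider list of fatty acid and ketone genes outside the members was read in the same fits. Of 118 tested, 52 lay above 0 and 66 below, the median log2 fold change was -0.06, edgeR called 0, and DESeq2 called 5 higher (4.24%, against 1.64% of all genes) and 1 lower (0.847%, against 0.890%). At an unadjusted edgeR p under 0.05, 10 were higher (8.47%, against 5.06%) and 5 lower (4.24%, against 3.39%). By subgroup, the counts above and below 0 were 3 and 5 for the other transport genes, 4 and 7 for the other synthetases, 5 and 5 for the other carnitine genes, 2 and 6 for the other dehydrogenases, 10 and 8 for peroxisomal oxidation, 2 and 8 for the thioesterases, 7 and 8 for fatty acid synthesis, 3 and 4 for short-chain fatty acid receptors and butyrate targets, 3 and 6 for the other ketone genes and 16 and 12 for PPAR partners and targets. Acss2, the cytosolic acetate synthetase, was at 81.9 CPM in water 1, 44.3 in water 2, 27.4 in DSS 1 and 28.1 in DSS 2. It was lower in both DSS libraries without passing either test (-1.19, SE 0.35, edgeR adjusted p = 0.504). Slc16a6, listed with the other transport and ketone genes, went the other way at 16.1, 28.0, 69.8 and 41.8 CPM. It too passed neither test (1.34, SE 0.40, edgeR adjusted p = 0.504).

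The genes DESeq2 called higher were not enzymes of the cycle. Slc16a3, the lactate exporter MCT4, stood at 9.63 CPM in water 1, 53.4 in water 2, 164 in DSS 1 and 222 in DSS 2, a log2 fold change of 2.62 (SE 0.78, DESeq2 adjusted p = 0.00244, edgeR 0.504). Emb, embigin, a chaperone of monocarboxylate carriers, stood at 8.21, 15.6, 56.9 and 37.5 (1.99, SE 0.41, DESeq2 0.00252, edgeR 0.401). Hcar2, a receptor for butyrate and 3-hydroxybutyrate, stood at 5.36, 28.4, 146 and 40.9 (2.47, SE 0.91, DESeq2 0.0210, edgeR 0.564). Each DSS library exceeded each water library in each, the water values themselves differing several-fold for Slc16a3 and Hcar2. All 3 calls were lost without DSS 1, and those of Emb and Hcar2 also without water 1. The DESeq2 log2 fold change of Slc16a3, 2.60 with all libraries, was 2.81 without DSS 1, 1.84 without water 1 and 4.33 without water 2. That of Emb, 1.98 with all libraries, was 1.65 without DSS 1 and 1.59 without water 1. That of Hcar2, 2.46 with all libraries, was 1.27 without DSS 1, 1.71 without water 1 and 4.13 without water 2. The PPAR target Angptl4, an inhibitor of lipoprotein lipase, stood at 8.21, 8.03, 23.5 and 31.0 CPM (1.75, SE 0.30, DESeq2 0.00294, edgeR 0.338), and its DESeq2 call was lost in each of the fits that left out 1 library, with adjusted p from 0.0606 to 0.167, while its DESeq2 log2 fold change stayed between 1.55 and 1.93. Fabp4, a fatty acid carrier of adipocytes and macrophages, stood at 59.5, 45.6, 93.9 and 293, and was highest in DSS 2 (1.88, SE 0.57, DESeq2 0.0138, edgeR 0.505). The other 12 adipocyte markers summed to 282, 219, 262 and 717 CPM, also highest in DSS 2, and their part in the Fabp4 level was not tested. The DESeq2 call of Fabp4 was kept without DSS 1 and lost without any of the other libraries. Its DESeq2 log2 fold change of 1.87 was 2.07 without water 1 and 1.70 without water 2, but 0.85 without DSS 2. Esrrg, an orphan nuclear receptor, was called lower by DESeq2 from 123 and 57 reads in water 1 and water 2 and 0 and 2 in DSS 1 and DSS 2, a call (adjusted p = 0.000963) lost without water 1. Its fitted DESeq2 log2 fold change was -6.43 with all libraries and -5.79 without water 1, values that rest on the 2 reads in DSS. Neutrophil and eosinophil markers were both higher in both DSS libraries. The part of these cells in the Slc16a3, Emb and Hcar2 levels was not tested.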

How the data were processed

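Poly-A-selected RNA of 4 libraries was sequenced on an Illumina NovaSeq X Plus, per the labels' protocols. Tools listed without version or role in the submitters' processing notes are the aligners HISAT2 and STAR, the counters HTSeq and featureCounts, and DESeq2, with the builds GRCm38 and mm10. The authors deposited raw read counts per gene symbol, and their strand setting was not stated.

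From these counts, edgeR 4.0.16 in R 4.3.3 was run with TMM scaling, filterByExpr at its defaults (minimum count 10, minimum total 15) and the robust quasi-likelihood test of DSS against water, and p-values were adjusted over all 18788 genes tested (threshold 0.05). The genes tested held 99.4% of the counts, and the common biological coefficient of variation was 0.432. DESeq2 1.42.0 and limma 3.58.1 (voom) served as alternatives, with other scalings, filters, a replicate block and each library left out. The procedure was tested on simulated counts. Replicates differed by far more than counting noise (chi-square per degree of freedom 160 for water and 385 for DSS). Each SE printed with a log2 fold change is the absolute edgeR log2 fold change over the square root of the test's F statistic. This holds also where a DESeq2 adjusted p stands beside it. CPM use TMM-adjusted sizes, and exon lengths and overlaps come from GENCODE vM21. Promoters are from RefSeq (GRCm38.p6). The members, marker lists and pathway lists were chosen with earlier results of these data known. All members are named. Of the other genes, the text names genes called by either test, and, from lists without a call, some of those with the largest fold change whose mean was at least 10 CPM and whose groups did not overlap.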

Additional observations from a re-analysis of the deposited data

How the results depend on the processing

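No member changed its side of the edgeR threshold when DESeq2 size factors, a filter of 1 CPM in 2 libraries, scaling to epithelial counts, limma-voom, the replicate block or the removal of immunoglobulin, T cell receptor and mitochondrial genes was used, or when any 1 library was left out. With no count filter 1 member was called higher (Acsl4) and 1 lower (Acsm3), with 8 and 5 of the wider list, 710 and 341 of all genes, and an all-gene median of 0.012. DESeq2 called 5 and 1 of the wider list and 322 and 175 of all genes. With a library left out, it also called Acsm3 lower without DSS 2 and Acsl4 higher without water 2. Scaling to epithelial counts gave 62 higher and 20 lower among all genes, shifted the all-gene median to 0.52 and that of the wider list to 0.41, and put the members at 0.33, below the shift. It turned the log2 fold changes of Slc16a1 (0.14), Cpt2 (0.063), Acads (0.28), Acadm (0.36), Acadvl (0.29), Etfa (0.084), Etfb (0.14), Hadh (0.10), Echs1 (0.25), Eci1 (0.54), Acaa1a (0.34), Acat1 (0.13), Oxct1 (0.22) and Pparg (0.36). Values near 0 also turned, Cpt1a to -4e-04 under DESeq2 and Cpt1a (-0.020), Eci1 (0.024), Acaa2 (-0.0019) and Ehhadh (-0.024) under limma-voom, which called 0 genes lower. The cause was not tested.

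The labels do not say that the replicate numbers mark a shared mouse or day, so the numbers were not taken as pairs. Over 18788 genes, the difference between the water libraries correlated at r = -0.104 with that between the DSS libraries. With a single difference in each group, this value cannot show whether the libraries were paired. The replicate block called 0 members and 0 genes lower, gave the members a median of -0.13, and turned Cpt1a (-0.013), Eci1 (0.017) and Ehhadh (-0.070). A crossed block, chosen after seeing the data, called 1 gene of the wider list and 29 higher and 15 lower of all genes.

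Leaving out 1 library at a time moved the calls among all genes from 0 to 123 higher and 3 to 73 lower, both most without water 2, those of the wider list from 0 to 1 higher, the all-gene median from -0.072 to 0.020, the members' median from -0.58 to 0.20 and that of the wider list from -0.34 to 0.088. The lone library of a group is then assumed to vary like the other group. Log2 fold changes that turned ranged from -0.90 to 0.24 for Slc16a1, -1.29 to 0.15 for Slc5a8, -0.087 to 0.79 for Acsl1, -0.0018 to 0.12 for Acsl5, -0.28 to 0.24 for Cpt1a, -1.04 to 0.23 for Cpt2, -0.30 to 0.42 for Slc25a20, -0.74 to 0.36 for Acads, -0.66 to 0.40 for Acadm, -0.25 to 0.45 for Acadl, -0.49 to 0.16 for Acadvl, -0.82 to 0.086 for Etfa, -1.14 to 0.64 for Etfb, -0.10 to 0.25 for Etfdh, -0.18 to 0.34 for Hadha, -0.22 to 0.42 for Hadhb, -0.87 to 0.16 for Hadh, -0.61 to 0.084 for Echs1, -0.36 to 0.39 for Eci1, -1.19 to 0.18 for Decr1, -0.62 to 0.15 for Acaa1a, -0.47 to 0.46 for Acaa2, -0.78 to 0.62 for Ehhadh, -0.63 to 0.90 for Ppara and -0.54 to 0.30 for Pparg. With 2 libraries a group, differences of the size of the spread between libraries were not detectable.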
